A study of Mus musculus with 72 samples.

Results

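The genes described here encode 8 proteins of blood coagulation and of plasminogen activation: tissue factor (F3), coagulation factor X (F10), the A subunit of factor XIII (F13a1), thrombomodulin (Thbd), the endothelial protein C receptor (Procr), urokinase (Plau), its receptor (Plaur) and tissue-type plasminogen activator (Plat). They were chosen by name and are 8 of the 18193 mouse genes for which the array carried a probe set annotated to a single gene symbol. Each gene was read from such a probe set, the one with the highest mean where it had several.

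Expression was measured in colon tissue of wild type Balb/c mice, with 1 Affymetrix array per mouse and 72 arrays in all. TNBS (trinitrobenzene sulfonic acid), which makes the bowel wall a target of immune cells, was instilled into the rectum at 70 µg per g body weight, and colons were taken on day 4. An hour before TNBS, mice received no treatment (8 mice), 10 mg/kg of an IgG2a against human CD20 as control antibody (15), the TNF-binding receptor fusion TNFR-Ig at 0.3 mg/kg (12), the anti-TWEAK antibody mP2D10 at 10 mg/kg (14), or both agents at these doses, called the combination (15), and 8 naive mice without colitis were the further group. The study was run as 2 experiments, numbered 7 and 10, and the naive mice belonged to experiment 10 alone. Mice given TNFR-Ig alone received no antibody, and its dose was picked by the submitters for having little effect alone on colon length and body weight. Each array is a separate mouse per the labels. RNA came from pieces cut from the frozen rolled colon, so each value is an average over all cells of the piece, and fewer cells of a type and less RNA per cell cannot be told apart.

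Coagulation starts when tissue factor, exposed by cells outside the vessel or by activated monocytes and endothelium, binds factor VII and activates factor X. Thrombin then makes fibrin, which factor XIII cross-links, while thrombomodulin and the protein C receptor on endothelium turn thrombin toward activating the anticoagulant protein C. Plasmin, made from plasminogen by urokinase and tissue-type activator, dissolves fibrin, and the urokinase receptor holds urokinase on the surface of leukocytes and other cells. Inflamed bowel is known for fibrin deposits and small vessel thrombosis.

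The deposited values are log2 expression levels with a floor at 2.08, and array medians lay between 4.60 and 4.77. Of the 18193 genes, 12534 had a mean of at least 2.42 and were tested. Among the 8 genes, 7 were tested, and F10, with a mean of 2.41 over all arrays, fell just below this limit. The mean of 11 colonocyte markers lay between 12.43 and 13.59 over all groups and that of 8 smooth muscle markers between 12.07 and 12.99, so both were well above the floor in a tissue labelled colon. The 3' minus 5' difference of Actb, which is larger in degraded RNA, lay between 0.93 and 1.32 in 5 of the 6 groups and reached 1.5 in the combination group, whose median of 1.11 was within the range of every other group. The first naive mouse carries a treatment field that names the combination. Its 5.27 for Plaur was the lowest of the naive group, and without it 7 members were called in colitis as with it. In addition, 2 combination arrays of experiment 7 bear file names of the run of experiment 10. Without them 2 members were called between combination and control antibody, the same number as with them.

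Colitis raised all 7 tested members. Between untreated colitic and naive mice, 7 of 7 were called higher at a Benjamini-Hochberg adjusted p under 0.05 (limma, adjusted over all 12534 genes, two-sided), beside 22.2% of all tested genes called higher. The members' median log2 difference was 0.96, and that of all tested genes was -0.01. The rises ranged from 1.20-fold for Thbd to 6.32-fold for Plaur. Since naive mice were run in experiment 10 alone, the values that follow come from a model with a term for the experiment.

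Tissue factor, the trigger of the cascade, had log2 values of 10.61 to 10.90 with a median of 10.81 in the 8 naive mice. In the 8 untreated colitic mice F3 lay between 10.80 and 11.86 with a median of 11.47. Of the untreated mice, 7 were above every naive mouse, and the groups overlapped through a single one. The log2 difference was 0.54 ± 0.12 (SE), a 1.46-fold rise, with an adjusted p of 0.000248 in limma.

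F10, the protease that tissue factor activates and that is made chiefly by liver, was at or near the floor in most mice. In naive mice its values were 2.12 to 2.19, and 7 of 8 were within 0.1 of the floor. In untreated colitic mice none of 8 was that close to the floor: from low to high their values were 2.19, 2.25, 2.46, 2.68, 2.81, 2.97, 3.42 and 5.78. Naive and untreated mice thus overlapped only at the lowest untreated value, while 1 untreated mouse of experiment 7 lay far above the others. That lowest value, 2.18639, equals the highest naive one and recurs on arrays of every group, just above the 0.1 limit. F10 was not tested between groups in the reported fit, and no fold is given against a group at the floor. In an alternative fit of every probe set, limma called it higher in colitis (adjusted p = 0.0197). That fit also called F10 lower under control antibody than in untreated mice (adjusted p = 0.0292). Of the hepatocyte marker list, Alb, Ahsg and Apoh were within 0.1 of the floor on 72 of 72 arrays and Apoa1 on 70. Ttr and Fabp1 of the same list, both also made outside the liver, were that low on 0 of 72. The other 2 probe sets of F10 were also at the floor on nearly all arrays.

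F13a1, whose enzyme cross-links fibrin and which macrophages and platelets carry, lay between 9.90 and 10.37 with a median of 10.00 in naive mice. Untreated colitic mice had values of 10.38 to 12.67 with a median of 12.13. The ranges did not overlap, although the lowest untreated mouse exceeded the highest naive mouse only slightly. The rise was 1.72 ± 0.32 on the log2 scale, 3.30-fold, with an adjusted p of 1.09e-05 in limma.

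The anticoagulant receptors are textbook markers of endothelium, and both were called higher. Thbd lay between 11.97 and 12.36 with a median of 12.22 in naive mice and between 11.98 and 12.57 with a median of 12.40 in untreated mice. These ranges overlapped widely. The difference of 0.26 ± 0.099 had an adjusted p of 0.0233 in limma, but within experiment 10 alone it was 0.14 with an adjusted p of 0.135, and leaving out any of 3 single mice took it past the threshold (adjusted p up to 0.0572). Procr, which presents protein C to the thrombin-thrombomodulin complex, lay between 9.01 and 9.52 with a median of 9.28 in naive mice and between 9.28 and 10.04 with a median of 9.80 in untreated mice. All but 1 untreated mouse were above the naive range. Its difference was 0.57 ± 0.10, 1.49-fold, with an adjusted p of 6.65e-06 in limma and 0.46 within experiment 10.

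Both activators of plasminogen rose. Plau lay between 7.46 and 8.08 with a median of 7.77 in naive mice, and between 7.79 and 9.04 with a median of 8.61 in untreated mice, of which 7 of 8 were above the naive range. The difference was 0.96 ± 0.17, 1.95-fold, with an adjusted p of 6.39e-06 in limma. Plat lay between 7.16 and 7.97 with a median of 7.40 in naive mice and between 8.27 and 9.64 with a median of 9.31 in untreated mice. No untreated mouse reached down to the naive range, and the difference was 1.77 ± 0.18, 3.41-fold, with an adjusted p of 9.18e-13 in limma. Each of these genes has a second probe set, within 0.1 of the floor in 8 of 8 naive and 6 of 8 untreated mice. In a limma fit of every probe set these differed by 0.05 for Plau (adjusted p = 0.907) and 0.15 for Plat (adjusted p = 0.324). Differences of Plau and Plat were not tested against each other.

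Plaur, the receptor that focuses urokinase on migrating leukocytes, had the largest difference of the 7 tested members. Naive mice lay between 5.27 and 6.33 with a median of 5.86, and untreated colitic mice between 7.30 and 9.69 with a median of 8.67. The naive range overlapped with none of the 5 colitic groups. The difference was 2.66 ± 0.29, 6.32-fold, with an adjusted p of 2.09e-11 in limma.

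**Figure D1:**
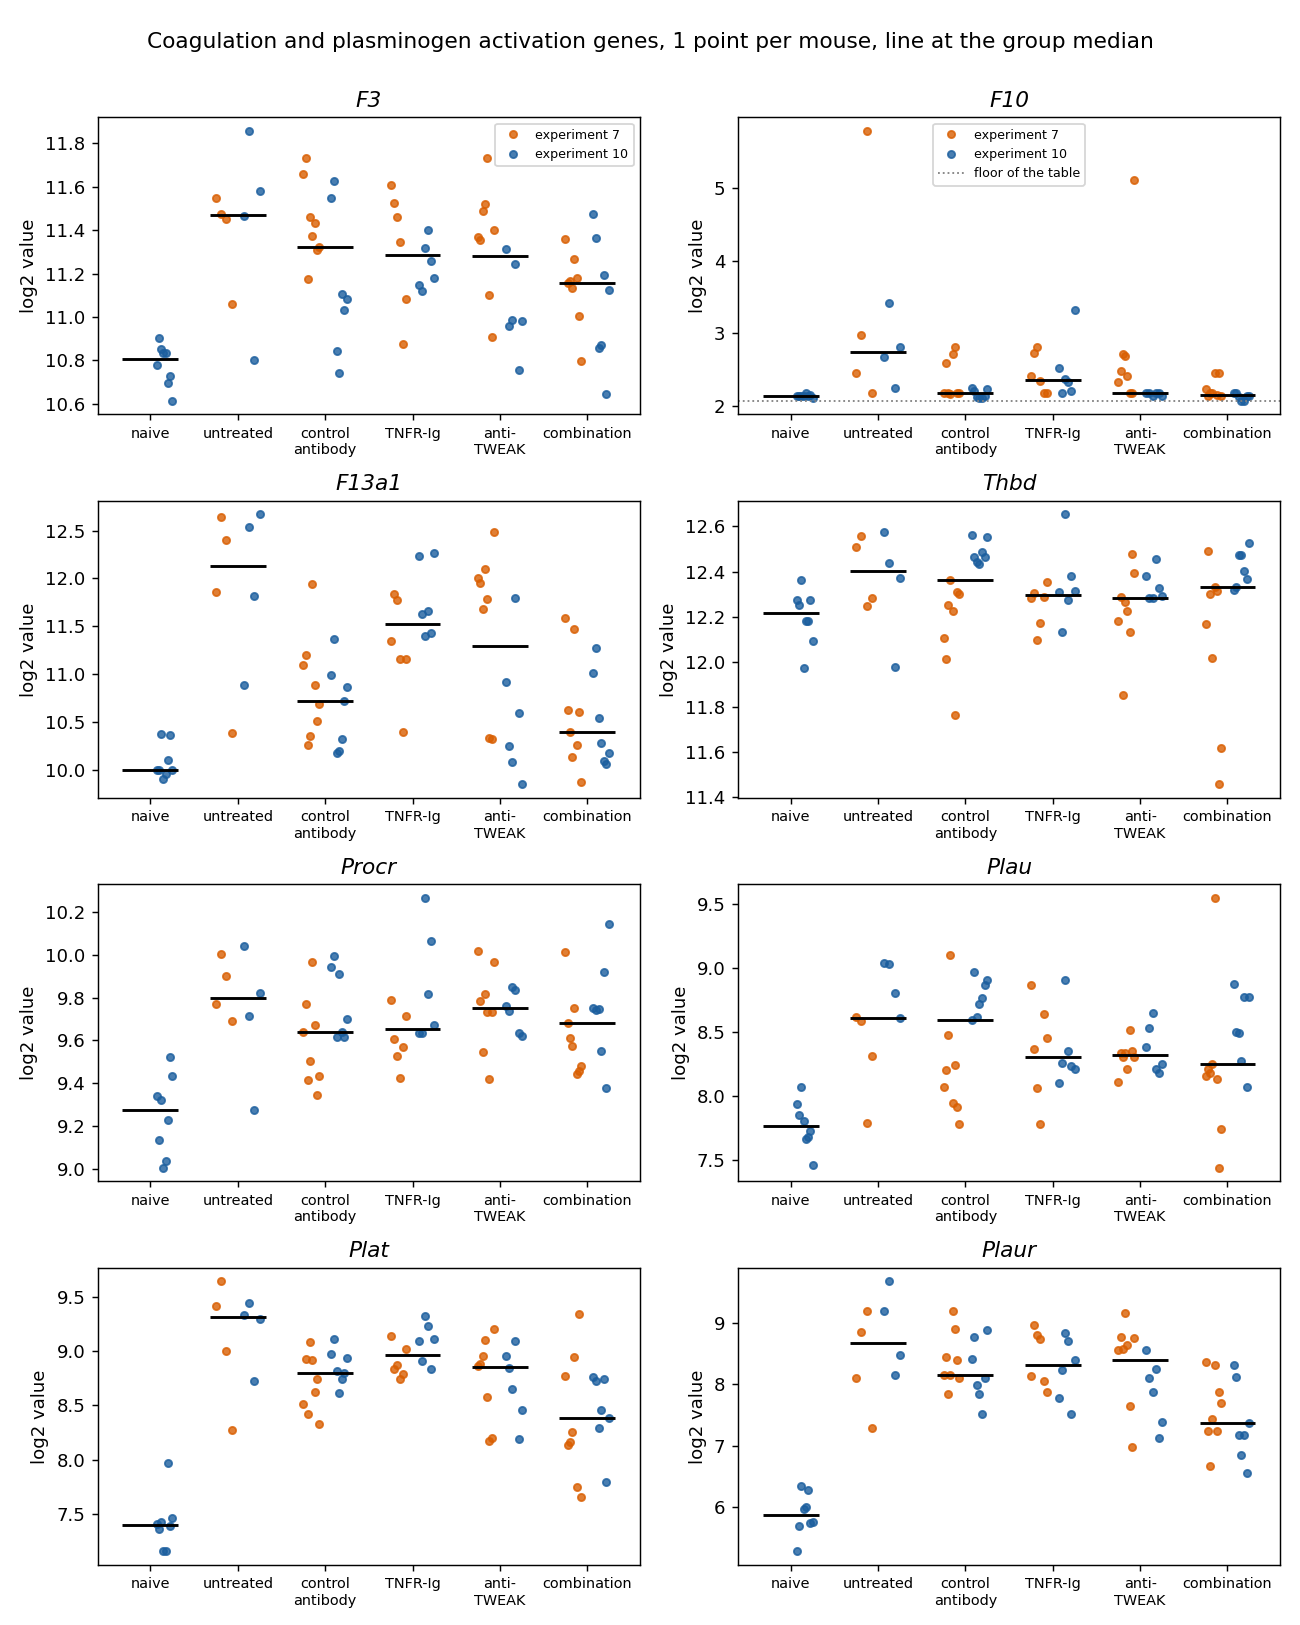
Log2 value of each of the 8 genes (vertical axes) in the 6 groups, 1 point per mouse, coloured by experiment, with a line at the group median. Every colitic mouse lies above the naive range for Plaur, F10 sits at the floor in naive mice, and the F13a1 values of the control antibody group lie mostly below those of untreated mice.

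Markers of several cell types moved with these rises. Of 13 tested macrophage markers, 12 were called higher and 1 lower in untreated mice, and their mean ran from 8.53 to 9.13 in naive and from 9.50 to 10.81 in untreated mice. All 9 tested neutrophil markers were called higher, with means of 2.51 to 4.12 in naive and 8.25 to 11.51 in untreated mice. Of 11 endothelial markers 10 were called higher, with means of 6.55 to 7.00 and 7.21 to 8.30. Among platelet markers Pf4 and Ppbp were called higher, whereas Itga2b, Gp6 and Treml1 were within 0.1 of the floor on 72 of 72 arrays. Of the neutrophil list, Ngp was that low on 42 of 72 arrays, Trem1 on 17, Mmp8 on 14, Cxcr2 on 10 and Stfa2l1 on 5. S100a8, S100a9, Csf3r and Fpr2 were that low on 0. The floor limits what the size of the neutrophil differences and the low end of their mean can show. All 8 smooth muscle markers and 9 of 11 colonocyte markers were called lower. The part of these cells in the members' changes was not tested.

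Promoter windows of 5 of the 8 genes are in the RefSeq table used here (GRCm38.p6, 250 bases before to 50 bases after the annotated start). They were searched on both strands for TGANTCA, the site of AP-1 factors, for GGGCGG, for TATAAA and for GGGRNWYYCC. The last is a consensus form of the NF-kB site (R is A or G, N any base, W A or T, Y C or T). F3, Procr and Plaur hold TGANTCA, which 7.81% of the 32851 windows in the table hold, and these windows are shown with that motif in capitals. All 7 tested members were called higher in colitis, so the rise does not set these 3 apart. F3 has it 2 times, starting at bases -146 and -135 from the start, Plaur at -69 and Procr at -154. The windows of F10 and of both F13a1 starts do not contain TGANTCA. The GGGRNWYYCC form of the NF-kB site, held by 4.51% of all windows, was in none of the 6. NF-kB sites that differ from this pattern were not searched for. F3 and Plaur each hold GGGCGG 3 times, as 35.7% of all windows do at least once, and F3 also holds TATAAA on the other strand at base 44 after the start (13.6% of all windows). The motifs were picked after the values were known, and a match is a description of the sequence only.
F3, chr3:121723287-121723586, plus strand: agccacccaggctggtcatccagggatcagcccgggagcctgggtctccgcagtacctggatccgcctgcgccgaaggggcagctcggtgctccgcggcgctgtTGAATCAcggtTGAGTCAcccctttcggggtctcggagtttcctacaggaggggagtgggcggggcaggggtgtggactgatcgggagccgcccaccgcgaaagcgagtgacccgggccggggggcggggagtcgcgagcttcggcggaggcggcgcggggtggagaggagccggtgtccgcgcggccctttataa
Procr, chr2:155750967-155751266, plus strand: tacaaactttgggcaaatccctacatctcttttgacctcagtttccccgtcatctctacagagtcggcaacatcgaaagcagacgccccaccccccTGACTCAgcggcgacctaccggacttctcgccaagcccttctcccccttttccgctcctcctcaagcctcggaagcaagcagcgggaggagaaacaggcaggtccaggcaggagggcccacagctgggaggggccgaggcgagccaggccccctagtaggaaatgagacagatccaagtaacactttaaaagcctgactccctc
Plaur, chr7:24462233-24462532, plus strand: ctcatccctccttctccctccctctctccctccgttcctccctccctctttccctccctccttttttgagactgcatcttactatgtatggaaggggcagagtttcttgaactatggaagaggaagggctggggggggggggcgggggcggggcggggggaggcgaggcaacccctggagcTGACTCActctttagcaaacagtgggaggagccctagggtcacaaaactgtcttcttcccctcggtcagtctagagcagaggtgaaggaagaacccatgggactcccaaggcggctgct

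The control antibody itself went with a lower F13a1. Comparing control antibody with untreated colitic mice, 1 of 7 tested members, F13a1, was called lower, beside 5.52% of all tested genes called lower. The 15 control antibody mice lay between 10.17 and 11.94 with a median of 10.72, so that they overlapped the untreated range but 5 of them were below its lowest value. The difference was -1.13 ± 0.27 (log2), 2.20-fold lower, with an adjusted p of 0.00600 in limma. It was -0.95 in experiment 7 and -1.32 in experiment 10, and the call was lost in experiment 7 alone (adjusted p = 0.353). Plat differed by -0.37 ± 0.15 with an adjusted p of 0.0979, and it was called, at -0.49, without the fifth untreated replicate of experiment 7. The other 5 members differed by -0.32 to -0.05. All 7 differences were below 0, with a median of -0.11 against 0.03 over all tested genes.

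Macrophage markers fell in the same comparison: 11 of 13 were called lower, with a mean of 9.29 to 10.29 in control antibody mice. Lyz2, a lysozyme of myeloid cells, differed by -0.52 ± 0.12. Of 9 neutrophil markers 3 were called lower. The part of macrophages in the lower F13a1 was not tested.

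Neither single agent moved a tested member past the threshold against the control antibody. For TNFR-Ig, 0 of 7 members were called in limma, 1 had an unadjusted p under 0.05, and 4.08% of all tested genes were called. That member was F13a1, at 10.39 to 12.26 with a median of 11.53 in the 12 TNFR-Ig mice. These values overlapped those of control antibody mice, which had received the antibody that TNFR-Ig mice had not. The difference was 0.76 ± 0.24 with an adjusted p of 0.0537. It crossed the threshold without any of 8 single mice, with the lowest adjusted p at 0.0199, and in experiment 10 alone, where it was 1.11 with an adjusted p of 0.00664 against 0.41 in experiment 7. Of 13 macrophage markers 6 were called higher in this comparison, and their part in the F13a1 values was not tested. Against untreated mice, who received no antibody either, 0 of 7 members were called for TNFR-Ig by limma, with 0 at an unadjusted p under 0.05 and 3.01% of all tested genes called. There F13a1 differed by -0.38 ± 0.28 with an interval of -0.93 to 0.18.

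For anti-TWEAK against control antibody, limma called 0 of 7 members, 0 had an unadjusted p under 0.05, and 2.8% of all tested genes were called. F13a1 spread widely among the 14 anti-TWEAK mice, from 9.85 to 12.49 with a median of 11.30. The range reached below the lowest naive mouse and overlapped that of untreated mice, with 5 of 14 anti-TWEAK mice below every untreated one. Its difference from control antibody was 0.38 ± 0.23. The intervals of the differences for the other members lay within -0.56 and 0.26, the widest being that of Plaur. Plau was called in experiment 10 alone, where its difference from control antibody was -0.41 under anti-TWEAK (adjusted p = 0.0228) and -0.43 under TNFR-Ig (adjusted p = 0.0159), while in experiment 7 it was 0.09 and 0.14. Over both experiments Plau lay between 8.11 and 8.65 with a median of 8.32 under anti-TWEAK, between 7.78 and 8.91 with a median of 8.31 under TNFR-Ig, and between 7.79 and 9.10 with a median of 8.59 under control antibody. The anti-TWEAK range lay wholly within both others.

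The combination lowered the urokinase receptor and tissue-type activator. Between combination and control antibody mice, 2 of 7 tested members were called lower, beside 17% of all tested genes called lower. The members' median was -0.19, against -0.0025 over all tested genes. In the 15 combination mice Plaur lay between 6.54 and 8.36 with a median of 7.37, against 7.52 to 9.20 with a median of 8.16 under control antibody. The groups overlapped, but 9 of 15 combination mice were below every control antibody mouse. The difference was -0.82 ± 0.21, 1.77-fold lower, with an adjusted p of 0.00195 in limma. It was -0.80 in experiment 7, where it was not called alone (adjusted p = 0.0777), and -0.85 in experiment 10 (adjusted p = 0.0312).

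Plat lay between 7.66 and 9.34 with a median of 8.39 under the combination and between 8.33 and 9.11 with a median of 8.80 under control antibody. Of the combination mice 7 were below the control antibody range and 1 was above it. The difference was -0.36 ± 0.12, 1.28-fold lower, with an adjusted p of 0.0229. Leaving out the sixth or the eighth combination replicate of experiment 7 ended this call (adjusted p = 0.0506 and 0.0501). Plat differed by -0.32 in experiment 7, where it was not called alone (adjusted p = 0.318), and by -0.41 in experiment 10 (adjusted p = 0.0444).

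The remaining members did not pass the test between combination and control antibody. F3 lay between 10.65 and 11.47 with a median of 11.16 under the combination and between 10.74 and 11.73 with a median of 11.32 under control antibody, a difference of -0.19 ± 0.088 with an adjusted p of 0.0919. It passed without the first combination or the fifth control antibody replicate of experiment 10 (adjusted p = 0.0447 and 0.0492). F13a1 lay between 9.87 and 11.58 with a median of 10.40, and differed by -0.21 with an interval of -0.66 to 0.24. Plau differed by -0.12 (interval -0.36 to 0.13), Thbd by -0.08 (-0.21 to 0.06) and Procr by 0.01 (-0.14 to 0.15). F10 was within 0.1 of the floor in 8 of 15 combination mice and in 5 of 15 control antibody mice, with medians of 2.16 and 2.19. The neutrophil marker mean ran from 3.81 to 9.06 under the combination and from 6.15 to 10.98 under control antibody, with 7 of 9 markers called lower, while 1 macrophage marker was called higher and 1 lower. The part of neutrophils in the lower Plaur was not tested. The Actb 3' minus 5' difference ran from 0.98 to 1.5 with a median of 1.11 under the combination and from 0.97 to 1.18 with a median of 1.07 under control antibody, and the part of RNA quality in the lower Plaur and Plat was not tested.

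**Figure D2:**
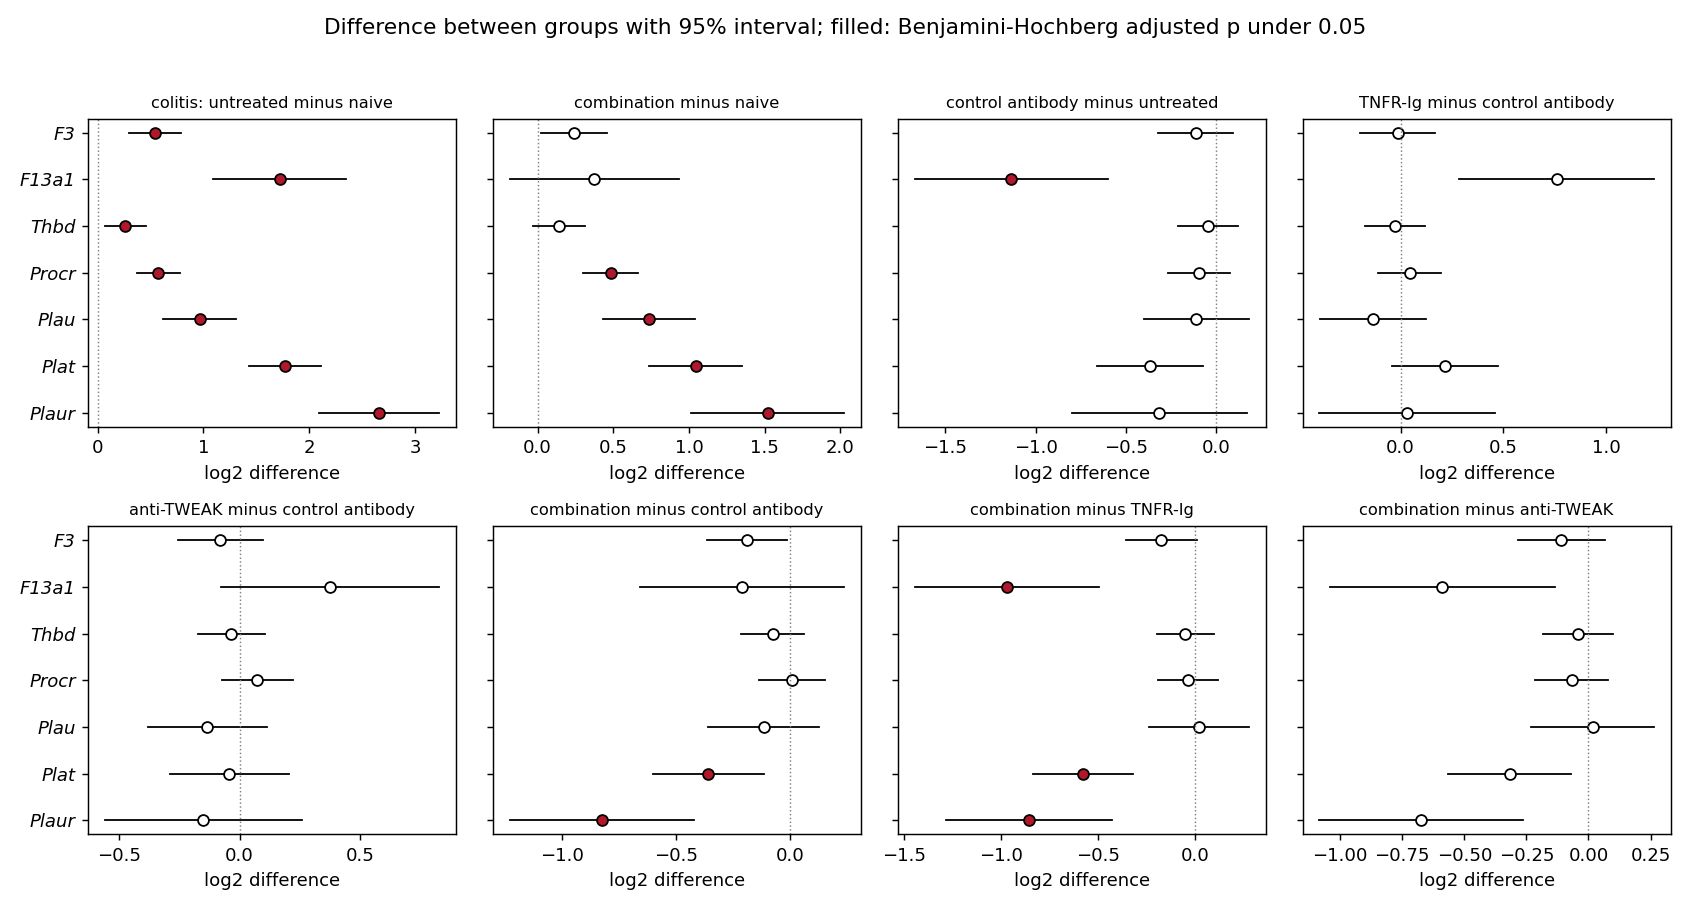
Log2 difference (horizontal axes) of the 7 tested genes with its 95% interval in 8 comparisons, with filled points where the adjusted p is under 0.05. All 7 points are filled in colitis, while under the combination against control antibody only Plaur and Plat are.

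Set against TNFR-Ig alone, the combination had lower F13a1, Plaur and Plat. Limma called 3 of 7 members lower, beside 4.5% of all tested genes. F13a1 differed by -0.97 ± 0.24 (adjusted p = 0.00989), and 7 of 15 combination mice were below every TNFR-Ig mouse. Plaur, at 7.52 to 8.97 with a median of 8.32 under TNFR-Ig, differed by -0.86 ± 0.22 (adjusted p = 0.0117). Plat, at 8.75 to 9.32 with a median of 8.96 under TNFR-Ig, differed by -0.58 ± 0.13 (adjusted p = 0.00544), and 11 of 15 combination mice were below the TNFR-Ig range. In experiment 7 alone none of the 3 was called, with differences of -0.66, -0.83 and -0.52. In experiment 10 they were -1.28, -0.89 and -0.63, and Plaur was not called there (adjusted p = 0.0620). The antibody dose is a further difference between these groups, and 8 of 13 macrophage and 8 of 9 neutrophil markers were called lower. The comparison shares the combination mice with the one before.

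Against anti-TWEAK alone, limma called 0 of 7 members, as it called 0% of all tested genes. At an unadjusted p under 0.05 were 3 members: Plaur at -0.67 ± 0.21 (adjusted p = 0.136), F13a1 at -0.59 ± 0.23 (adjusted p = 0.192) and Plat at -0.32 ± 0.13 (adjusted p = 0.198). Plaur ran from 6.97 to 9.16 with a median of 8.41 and Plat from 8.17 to 9.20 with a median of 8.86 under anti-TWEAK. Both ranges overlapped those of the combination.

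Combination-treated mice remained above naive mice for 4 of 7 members, beside 13.3% of all tested genes called higher. Plaur was higher by 1.52 ± 0.26, Plat by 1.04 ± 0.16, Plau by 0.74 ± 0.15 and Procr by 0.48 ± 0.092, with the largest of their adjusted p-values in limma at 0.000234. Every combination mouse lay above the naive range for Plaur, and 12 of 15 did for Plat and Plau. F3 differed by 0.24 ± 0.11 (adjusted p = 0.0995), F13a1 by 0.38 ± 0.29 (adjusted p = 0.348) and Thbd by 0.14 ± 0.088 (adjusted p = 0.246), and these did not pass. Thbd passed, at 0.21 with an adjusted p of 0.0192, without the 2 combination arrays whose file names bear the other run, and in experiment 10 alone (adjusted p = 0.0111).

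The combination's departure from the sum of the single agents, taken as the combination effect less both single effects against control antibody, was called for F13a1, 1 of 7 members, beside 0.239% of all tested genes called lower. It was -1.35 ± 0.33 with an adjusted p of 0.0497 in limma. The call stood at the threshold: it was lost in 53 of 72 fits that each left out 1 mouse, and the value ranged from -1.46 to -1.25. The contrast does not cancel an effect of antibody as such, since TNFR-Ig mice received none.

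Whether effects differed between the experiments was tested as an interaction for 4 comparisons, and limma called 0 of 7 members in each. Over all tested genes 0.016% were called for control antibody against untreated, 0% for TNFR-Ig against control antibody, 1.72% for the anti-TWEAK effect and 0.0319% for that of both agents. At an unadjusted p under 0.05 were Thbd in the first (0.38 ± 0.16, experiment 10 minus experiment 7), and Plau for TNFR-Ig (-0.57 ± 0.25) and for anti-TWEAK (-0.50 ± 0.25), with adjusted p-values of 0.305, 0.425 and 0.239. For the combination the number was 0.

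Ordered by fitted level, naive mice were lowest for all 7 tested members and untreated colitic mice highest. For Procr, Plau, Plat and Plaur the step from naive mice to the next group passed the test, and none of the 4 steps among the colitic groups did. For F3, F13a1 and Thbd none of 5 steps between neighbours passed, since levels rose in small steps from naive through combination to untreated mice. For F13a1 these steps were between 0.21 and 0.38.

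The other genes of the pathway were less uniform. Of 37 listed genes 33 are on the array and 16 were tested, the others being mostly plasma proteins made in liver and near the floor. In colitis 8 were called higher and 3 lower. Of all 12534 tested genes 5989 were called there, 2785 of them (22.2% of those tested) higher. Serpinb2, an inhibitor of plasminogen activators, rose by 4.31 ± 0.89, Kng1, the precursor of kinins, by 1.80 ± 0.53, F5, the cofactor of factor Xa, by 1.38 ± 0.27, and Vwf, which tethers platelets, by 1.02 ± 0.19. F2rl2, a thrombin receptor, was lower by 0.62 on the log2 scale (-0.62 ± 0.13) and Proc, protein C itself, by 0.57 (-0.57 ± 0.19). The adjusted p-values of these 6 in limma were at most 0.0127. Kng1 and Proc had means of only 2.79 and 3.10 over all arrays, near the floor of 2.08, and F2rl2 of 3.53. Levels near the floor limit what the size of their differences can show.

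In the control antibody group 5 of the 16 pathway genes were called lower than in untreated mice, beside 5.52% of all tested genes. They were Kng1 (-1.63 ± 0.45), Vwf (-0.63 ± 0.16) and Lrp1, a receptor that clears protease and inhibitor complexes (-0.37 ± 0.10). The others were Pros1, the cofactor of protein C (-0.30 ± 0.074), and Tfpi, the inhibitor of the tissue factor complex (-0.22 ± 0.060). The Kng1 difference comes from a gene with a mean of 2.79 over all arrays, near the floor. Vwf (0.64 ± 0.14) and Lrp1 (0.31 ± 0.088) were called higher under TNFR-Ig than under control antibody. In that comparison 4.08% of all tested genes were called in either direction. Vwf, Lrp1 and Pros1 were called lower under the combination than under TNFR-Ig, by -0.49, -0.28 and -0.21, beside 4.5% of all tested genes. Between combination and control antibody only Ggcx, the vitamin K dependent carboxylase (-0.23 ± 0.090), and Anxa2, a plasminogen-binding annexin (-0.06 ± 0.018), were called, both lower. Of all tested genes 17% were called lower there. Against naive mice the combination group had 2 called higher, Vwf (0.53) and Anxa2 (0.07), and 1 lower, F2rl2 (-0.47). Of all tested genes 13.3% were called higher against naive mice. Under anti-TWEAK limma called 0 of 16 against control antibody, beside 2.8% of all tested genes. There Vwf (0.33 ± 0.14) was the one pathway gene with an unadjusted p under 0.05. Vwf was also called for departure from additivity, at -0.82. That call was lost without an experiment term and with a term for each replicate number, where 0 genes were called. It was also lost without the filter and with every probe set, where the 1 and 2 genes called were all higher. As for F13a1, the contrast does not cancel an effect of antibody as such.

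**Figure D3:**
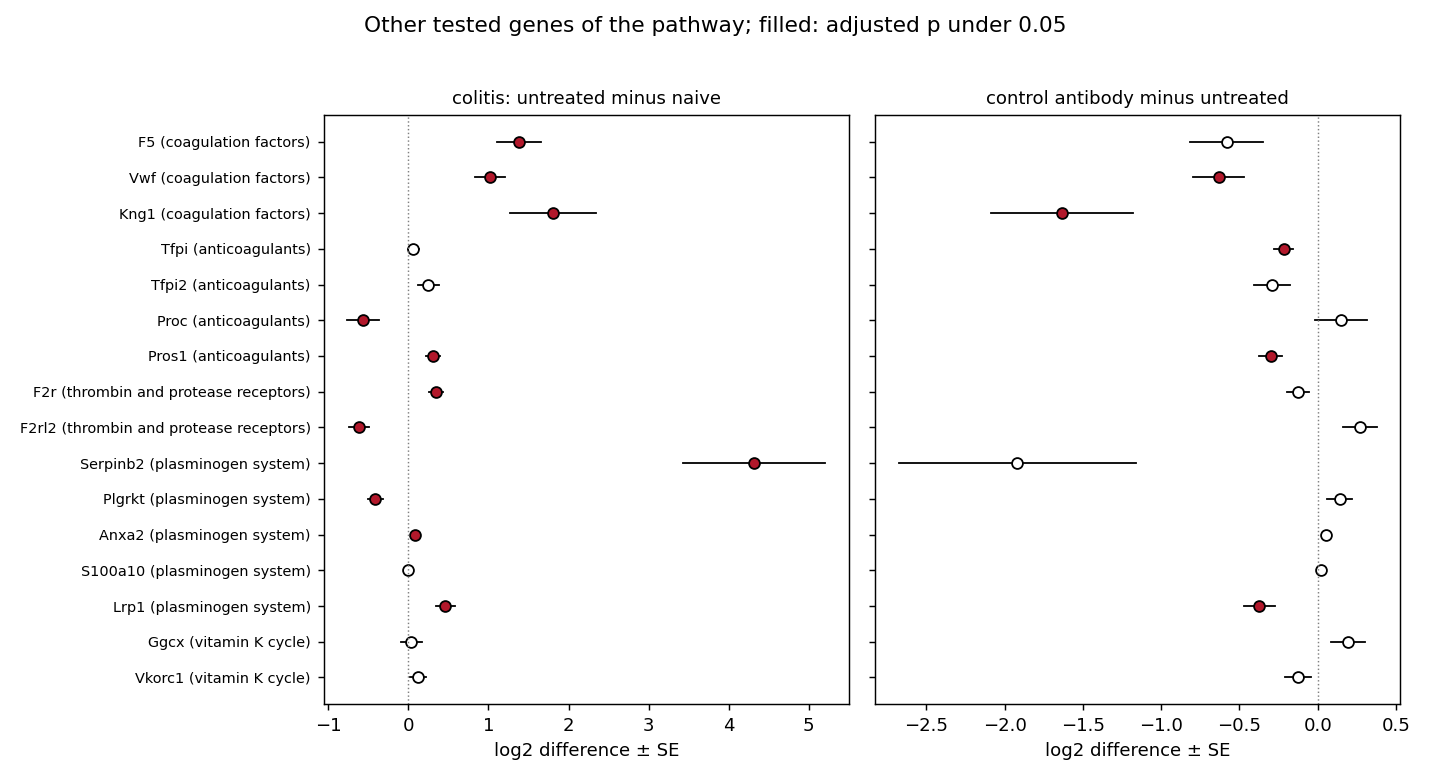
Log2 difference with SE (horizontal axes) of the 16 tested pathway genes outside the 8 members, in untreated against naive mice and in control antibody against untreated mice, with filled points where the adjusted p is under 0.05. Serpinb2 has the largest rise in colitis, 4.31, and the filled points on the right are all below 0.

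Within groups, several of the members, though not all, varied between mice along with cell type markers. These relations were computed over the 64 colitic mice after the mean of each group and experiment was removed, with p-values from 100000 permutations within group and experiment, two-sided. Of 80 relations between a member, F10 included, and a marker list mean, 37 had an adjusted p under 0.05 over the 80. Among them was F10 with the macrophage markers (r = 0.484, permutation p = 0.00158, adjusted p = 0.00506). F10 with the neutrophil markers was another (r = 0.418, permutation p = 0.00171, adjusted p = 0.00526). F13a1 followed the macrophage markers with r = 0.925 and rho = 0.911 (permutation p = 1e-05 for each, the smallest these permutations can give, adjusted p = 5e-05 for each). It was 0.948 in experiment 7, 0.885 in experiment 10 and 0.919 without the 2 mice farthest from the median marker level. Plaur followed the neutrophil markers with r = 0.870 and rho = 0.861 (permutation p = 1e-05 and adjusted p = 5e-05 for each), with 0.923 and 0.800 in the 2 experiments and 0.848 without the 2 farthest mice. F13a1 also followed the neutrophil markers (r = 0.845, rho = 0.858) and Plaur the macrophage markers (r = 0.660, rho = 0.635). The permutation p was 1e-05 and the adjusted p 5e-05 for each of these. Some members had called relations to further lists, and relations to different lists were not tested against each other.

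Thbd went with the fibroblast markers (r = 0.734, rho = 0.662, permutation p = 1e-05 and 2e-05, adjusted p = 5e-05 and 8e-05; r = 0.660 without the 2 farthest mice) and, more weakly, with the endothelial ones (r = 0.444, rho = 0.413, permutation p = 0.00672 and 0.00242, adjusted p = 0.0185 and 0.00645; r = 0.329 without the 2 farthest mice). Plat followed the macrophage and the endothelial markers to a similar degree (r = 0.709 and 0.708, rho = 0.679 and 0.695, permutation p = 1e-05 and adjusted p = 5e-05 for all; r = 0.695 and 0.650 without the 2 farthest mice). F3 followed the neutrophil markers (r = 0.660, rho = 0.644, permutation p = 1e-05 and adjusted p = 5e-05 for both; r = 0.622 without the 2 farthest mice) and ran against the colonocyte markers (r = -0.621, rho = -0.642, permutation p = 1e-05 and adjusted p = 5e-05 for both; r = -0.628 without the 2 farthest mice). Procr followed the endothelial markers (r = 0.493, rho = 0.504, permutation p = 8e-05 and 4e-05, adjusted p = 0.00032 and 0.000152; r = 0.511 without the 2 farthest mice). Its relation to macrophage markers was r = 0.716 in experiment 7 and 0.110 in experiment 10. Procr also followed the fibroblast markers (r = 0.474, rho = 0.477, permutation p = 0.00021 and 0.00025, adjusted p = 0.00073 and 0.000832). Plat also followed the neutrophil markers (r = 0.678, rho = 0.686, permutation p = 1e-05 and adjusted p = 5e-05 for both). Plau had an r of -0.01 with macrophage and 0.03 with neutrophil markers, and Thbd of 0.09 and -0.13. These were not called. The one called relation of Plau was with the hepatocyte list (r = -0.337, rho = -0.345, permutation p = 0.00847 and 0.00767, adjusted p = 0.0205 and 0.0166). Without the 2 farthest mice its r was -0.332. The mean of this list rests on Ttr and Fabp1, both also made outside the liver.

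**Figure D4:**
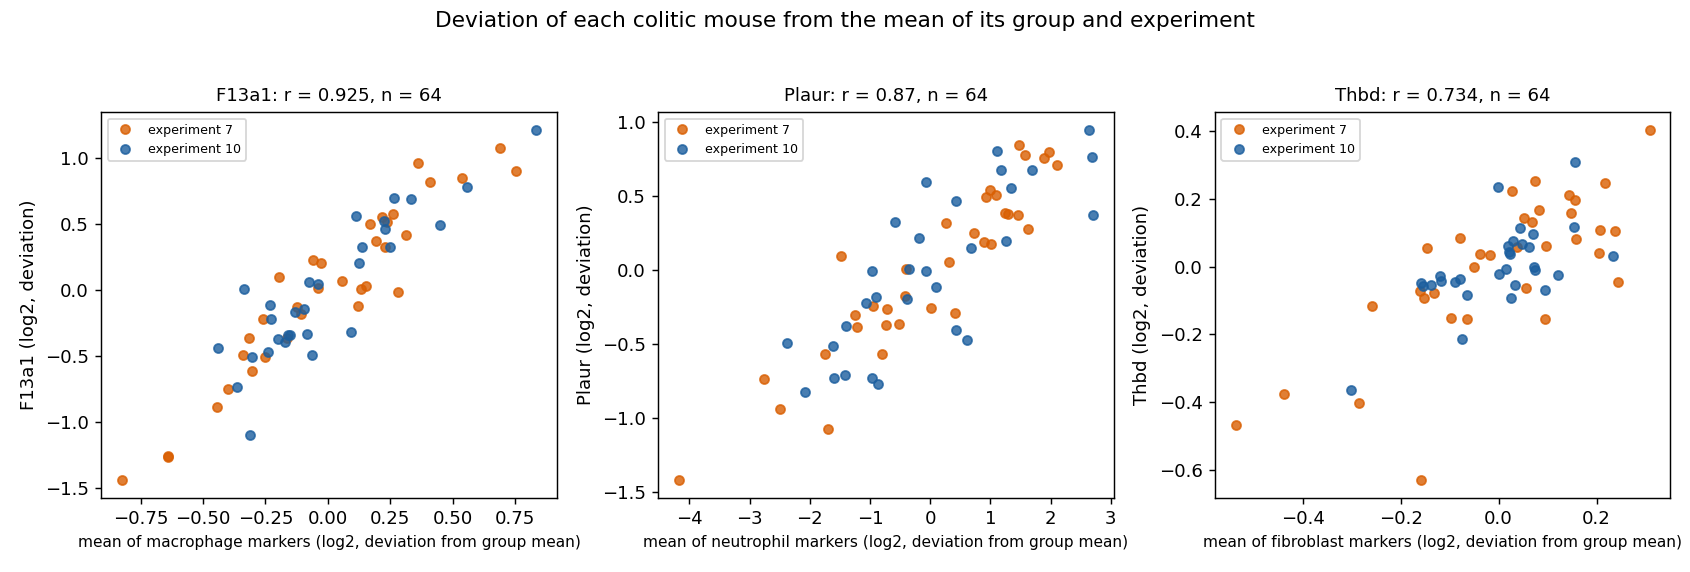
Deviation of F13a1, Plaur and Thbd (vertical axes, log2) from the mean of the mouse's group and experiment against the deviation of the mean of macrophage, neutrophil and fibroblast markers (horizontal axes, log2), 1 point per colitic mouse. F13a1 follows the macrophage markers with r = 0.925 and Plaur the neutrophil markers with r = 0.870 in both experiments together, while the Thbd relation (r = 0.734) has several mice of experiment 7 at its low end.

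Between members, F10 included, 15 of 28 pairs had an adjusted p under 0.05 over the 28. The highest were F13a1 with Plaur (r = 0.667, rho = 0.651), Plaur with Plat (0.651 and 0.664), F3 with Plaur (0.632 and 0.604), F13a1 with Plat (0.611 and 0.597) and F3 with F13a1 (0.607 and 0.623), with a permutation p of at most 2e-05 and an adjusted p of at most 9.33e-05 for each. Without the 2 mice farthest from the median these were 0.601, 0.597, 0.584, 0.542 and 0.604. Thbd was correlated with Procr (r = 0.377, rho = 0.319, permutation p = 0.00615 and 0.0168, adjusted p = 0.0171 and 0.0267) and with Plau (r = 0.443, rho = 0.320, permutation p = 0.00794 and 0.0172, adjusted p = 0.0171 and 0.0267; r = 0.314 without the 2 farthest mice), and not with F13a1 (r = 0.05) or Plaur (r = -0.08). For Thbd the 2 farthest mice were the seventh and eighth combination replicates of experiment 7, with deviations of -0.63 and -0.47. Their Plau deviations were -0.77 and -0.46. These are the 2 combination arrays whose file names bear the other run. F13a1 with Procr was r = 0.347 over both experiments, but 0.706 in experiment 7 and -0.06 in experiment 10. Plau with Plaur was -0.13 in experiment 7 and 0.603 in experiment 10. F10 was called with F13a1 (r = 0.467, permutation p = 0.0113, adjusted p = 0.0226) and with Plaur (r = 0.448, permutation p = 0.00672, adjusted p = 0.0171). Many of its values were near the floor. These correlations share arrays, so they are not independent of each other.

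**Figure D5:**
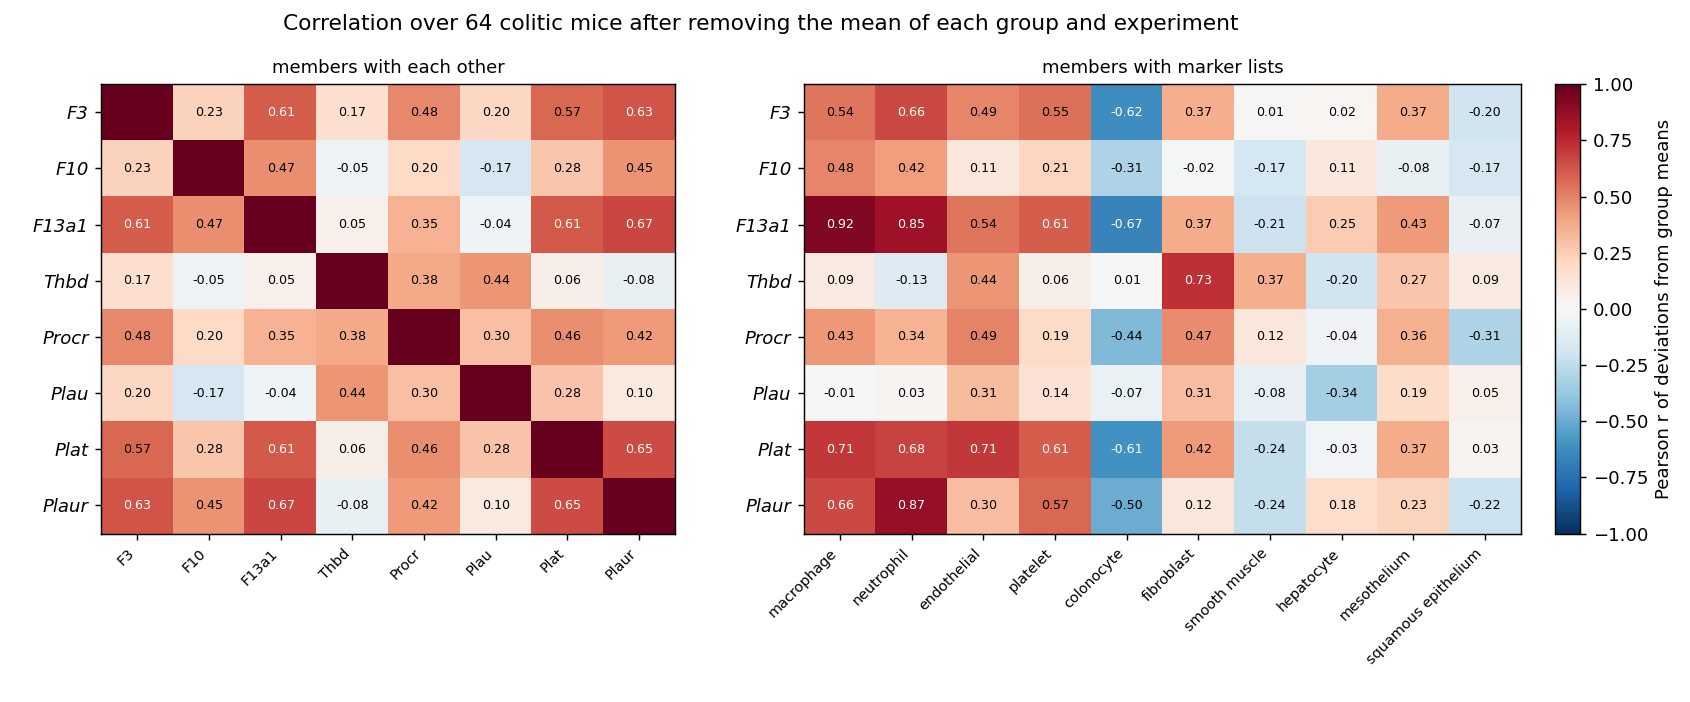
Pearson r (colour and printed value) over 64 colitic mice after removing group and experiment means, between the 8 members on the left and between members and the means of 10 marker lists on the right. F13a1, Plat, Plaur and F3 form a block of positive values with macrophage and neutrophil lists, while the Plau and Thbd rows lie between -0.13 and 0.09 there.

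The genes most like each member, by Pearson r over the same 64 mice among all tested genes, are given as a description without a test. F13a1 was nearest to Lyz2 (r = 0.925), Ms4a6c (0.920) and Dram1 (0.914), and Plaur to Ier3 (0.925), Csf2rb (0.920) and Adam8 (0.918). Plat was nearest to Pdpn (0.832), Lox (0.831) and Rab31 (0.814), and F3 to Fn1 (0.849), Msn (0.832) and Kirrel (0.829). Thbd was nearest to Flrt2 (0.790), Fzd7 (0.780) and Gpx8 (0.767), and Procr to Col18a1 (0.692), Ckap4 (0.683) and Tmem119 (0.675). Plau had the lowest values of the tested members: 0.652 with Tead2, 0.605 with Rasgrp3 and 0.597 with Nxpe3. F10 was nearest to Celsr3 (0.713), Il1f9 (0.707) and Ebi3 (0.687). The r with Celsr3 was 0.753 in experiment 7 and 0.354 in experiment 10. Of the 64 colitic mice, 15 had F10 within 0.1 of the floor. Their median of 2.18883 lay just above that limit, beside the recurring value of 2.18639. More colitic mice were therefore near the floor than this count, which limits the correlations of F10.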

How the data were processed

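Total RNA of mouse colon was hybridised to 1 array per mouse, and the number of arrays limits the precision. The deposited table holds 1 log2 value per probe set and array, normalised by the authors; the log2 unit was read from the values. The submitters' processing notes name limma 3.4.5, R 2.11.1, GCRMA and RMA without roles, so the method behind this table is not known here. Of 45101 probe sets, 34945 have 1 symbol, 932 several and 9160 none, and 64 are array controls. Symbols were updated by Entrez identifier (99.4% matched). Genes below the 40th percentile of probe set means (2.42) were left out.

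Group means with an added experiment effect were estimated from the 72 arrays together with limma 3.58.1 (R 4.3.3), and contrasts were two-sided with Benjamini-Hochberg adjustment over 12534 genes, and tested on simulated data. Mice are the replicates. Replicate numbers did not pair mice: deviations of same-numbered mice had a median correlation of -0.005. The members and lists were chosen with earlier results of these data known. All 8 members are named, up to 6 called pathway genes by size, and the 3 genes most like each member. Alternatives were no filter, every probe set, other normalization, moderation, weights, terms and subsets of arrays, and each array left out.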

Additional observations from a re-analysis of the deposited data

Results flagged for a closer look

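In 88 sets of 4 to 8 mice (a member in a group and experiment), 5 had a mouse whose gap to the nearest other mouse was above Dixon's 95% critical value for that set, and chance alone gives about 1 in 20. For F10 these were the eighth anti-TWEAK replicate of experiment 7, at 5.10 against 2.19 to 2.72 in the other mice of its set, and the eighth TNFR-Ig replicate of experiment 10, at 3.32 against 2.19 to 2.52. For Plau they were the fifth combination replicate of experiment 7, at 9.55 against 7.44 to 8.25, and the fifth TNFR-Ig replicate of experiment 10, at 8.91 against 8.10 to 8.35. The sixth naive replicate had a Plat value of 7.97 against 7.16 to 7.46 in the other naive mice. All 5 lay above the rest of their sets. No difference of an effect between the experiments was called for a member.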

How the results depend on the processing

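Of 98 results (7 tested members in 14 comparisons, interactions included), 18 were called, 66 were called under no setting, and 0 of the 18 turned sign under an alternative. The number of called members stayed within 1.5 times the main count except as follows. In experiment 7 alone it was 0 for combination against control antibody, combination against TNFR-Ig, control antibody against untreated, and departure from additivity. In experiment 10 alone it was 1 for anti-TWEAK against control antibody, 2 for TNFR-Ig against control antibody and 1 for TNFR-Ig against untreated. With array weights it was 2 for combination against anti-TWEAK, 2 for control antibody against untreated, 3 for departure from additivity, 1 for TNFR-Ig against control antibody and 1 for the anti-TWEAK interaction. For TNFR-Ig against control antibody it was also 1 in a fit of the compared groups alone and without the arrays of another run. Departure from additivity had 0 called members with the compared groups alone, every probe set tested, no experiment term, no filter on dim genes, quantile normalization, the replicate block, or without the array with conflicting labels; its own values for F13a1 stayed between -1.38 and -1.20 over these and both single experiments. Of the 66 results called under no setting, 31 turned sign under at least 1 alternative. Among the 32 called in the reported fit or under an alternative, 4 turned sign, all of Plau, uncalled as reported, and in experiment 7 alone: 0.091 for anti-TWEAK and 0.14 for TNFR-Ig against control antibody, 0.035 for TNFR-Ig against untreated and -0.24 for departure from additivity. The cause was not tested. Leaving out each mouse in turn gave 6 to 7 called members in colitis, 1 to 3 for combination against control antibody, 3 to 3 against TNFR-Ig, 4 to 4 against naive, 1 to 2 for control antibody against untreated (2 without the fifth untreated replicate of experiment 7), 0 to 2 for departure from additivity, 0 to 1 for TNFR-Ig against control antibody, and 0 to 0 for anti-TWEAK against control antibody, combination against anti-TWEAK and TNFR-Ig against untreated. With the replicate block, a term for each replicate number, 6 members were called in colitis (Thbd was lost, 0.23 with an adjusted p of 0.0809), 2 for combination against control antibody and 3 against TNFR-Ig. Levels near the floor limit F10, whose values there have no order.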
